A study of Mus musculus with 15 samples.

Results

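Osteoclasts become giant bone-resorbing cells by fusing with their neighbours, and 8 genes of that step were followed across all samples. They are *Dcstamp* and *Ocstamp*, which encode multi-pass membrane proteins required for fusion, the tetraspanins *Cd9* and *Cd81*, the adhesion pair *Cd47* and *Sirpa*, the hyaluronan receptor *Cd44* and the membrane protease *Adam8*. The genes were chosen by name as known genes of macrophage and osteoclast fusion, 8 of the 20089 genes listed with complete values, and all 8 passed the filter on low values. Fusion starts when M-CSF and RANKL turn a mononuclear precursor into a cell that expresses NFATc1, the master transcription factor of osteoclasts, which switches on *Dcstamp*. Precursors then attach through adhesion molecules, tetraspanins organise the membrane at the contact, and the membranes merge to give a multinucleated cell. Macrophages under inflammatory stimuli use several of the same surface proteins for adhesion, migration and control of phagocytosis.

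RNA sequencing was done on bone marrow-derived macrophages (BMDMs) of wild-type C57BL/6 mice in 5 groups of 3 samples. All groups received M-CSF, the survival factor of macrophages. The control group received nothing else, while the others were given either RANKL, the cytokine that induces osteoclasts, or LPS, the bacterial lipid that activates TLR4, each at 100 ng/mL for 4 h or 72 h (3 days). Mice of 4 to 8 weeks are named for BMDM cultures in the methods, without a statement on these samples. The time at which control cells were collected is not given in the sources used here, so added culture time cannot be told apart from either stimulus at 72 h. Nothing states whether replicates came from separate mice or cultures, and p-values then measure only the spread between these samples, which may be technical.

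Levels are FPKM, fragments per kilobase of gene scaled to the mapped reads of the library, and every sample held 18306184 to 20330207 fragments on the listed genes. The labels of the stimuli held: 5 of 6 osteoclast markers were called higher after 72 h of RANKL, and 6 of 6 genes of the LPS response after 4 h of LPS. All 8 macrophage markers averaged 1 FPKM or more in every group, with a sum of 7360 to 9075 FPKM in control. All 10 neutrophil and granulocyte precursor markers did so in control too, so this level does not identify the cells. Markers of other cells were detected as well. The summed level of 10 neutrophil and granulocyte precursor markers was 7913 to 24348 FPKM in control, 1852 to 7461 FPKM in RANKL 72 h and 152 to 1816 FPKM in LPS 72 h, and none of these genes was at 0 in all samples of a group. The sum of 16 stromal markers was 198 to 421 FPKM in control but 486 to 2256 FPKM in RANKL 72 h, with 10 of 16 called higher there. The third sample of LPS 72 h stood apart from its group, with 17491 FPKM of macrophage markers against 6086.5 and 7876. *Lyz2* alone made up 13800 of the 17491 FPKM. The same sample held 671 FPKM of stromal markers against 169 and 188, and 1816 FPKM of granulocyte markers against 186 and 152. Its sum of LPS response markers was the lowest of the group, 154 FPKM against 325 and 386. In such bulk samples fewer cells of a type and less RNA per cell cannot be told apart.

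The 8 genes fell into distinct patterns. *Dcstamp* and *Ocstamp* were close to silent except in RANKL 72 h, *Cd81* rose in RANKL 72 h alone among the 4 stimulated groups, and *Cd9* fell in LPS 72 h. *Cd47*, *Sirpa*, *Cd44* and *Adam8* were abundant in every group. Of these *Sirpa*, *Cd44* and *Adam8* were called against control in LPS 4 h, *Adam8* in both 72 h groups too, and *Cd47* in none. A gene was called higher or lower at a fold change above 1.5 or below 0.66 with an unadjusted p under 0.05 from limma, fitted to log2(FPKM + 0.1) of 11743 genes. The adjusted p (Benjamini-Hochberg over those 11743 genes) is given beside each value, and log2 fold changes are on that scale, which understates the change of genes near 0.

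**Figure D1:**
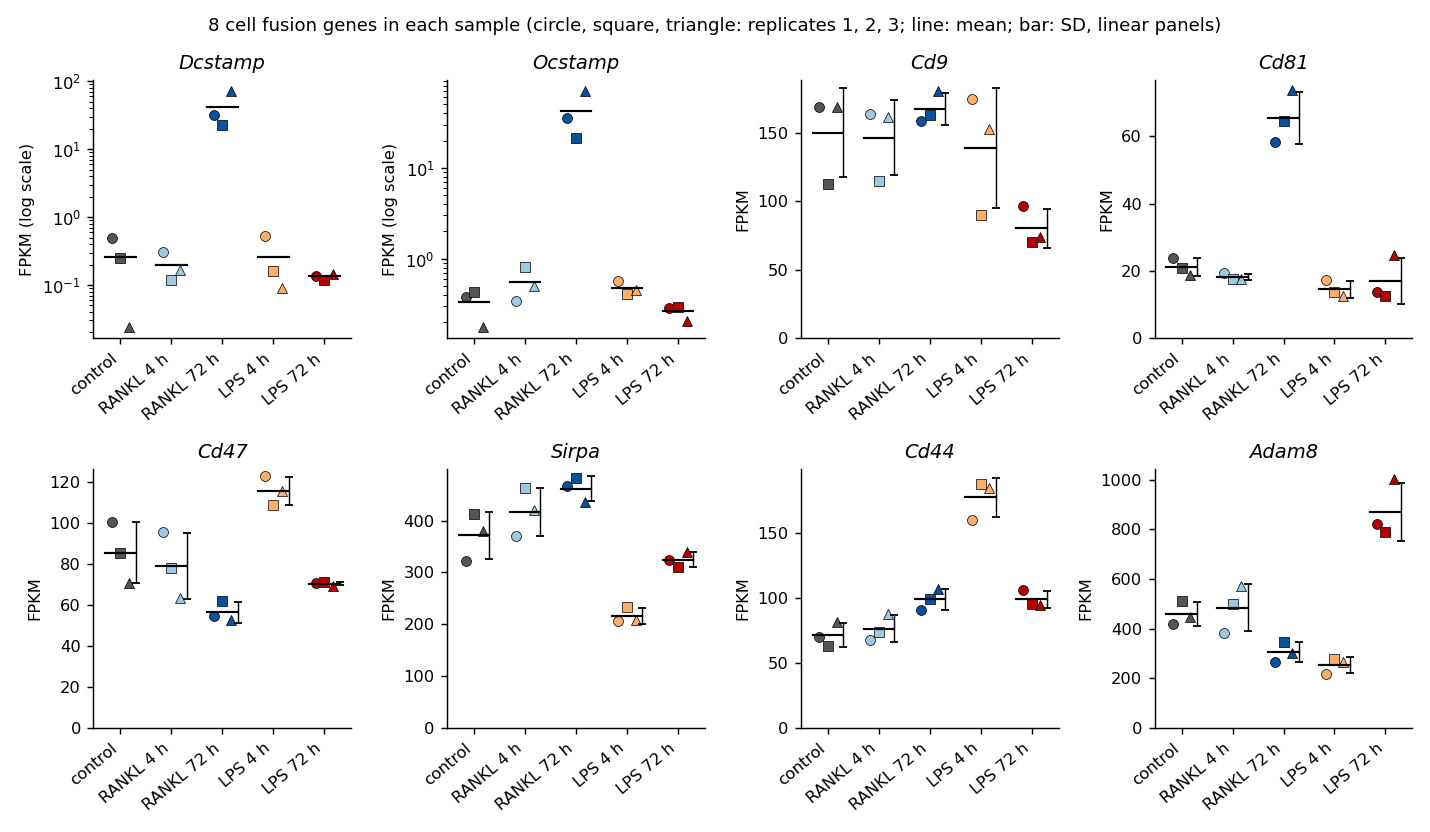
Level of each of the 8 genes in each of the 15 samples, in FPKM (log axis for *Dcstamp* and *Ocstamp*, linear axes from 0 for the others), with the mean of each group as a line and its SD as a bar in the linear panels. The 3 RANKL 72 h samples of *Dcstamp* lie at 22.4 to 70.9 FPKM and those of every other group at or below 0.522 FPKM.

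*Dcstamp* encodes the dendritic cell-specific transmembrane protein, without which osteoclast precursors stay mononuclear. The gene lies on chr15:39745930-39760938 (plus strand, GRCm38, GENCODE M21 annotation), with 5 coding transcripts, the longest of 1997 bases in 4 exons. A qPCR primer pair for the gene gives a product inside the coding part of exon 2, at chr15:39754241-39754312 of GRCm38, in 4 of those 5 transcripts. It is shown because the same gene carries the largest change here, with the stretches matched by the 2 primers in capitals.
Dcstamp qPCR product, 72 bases: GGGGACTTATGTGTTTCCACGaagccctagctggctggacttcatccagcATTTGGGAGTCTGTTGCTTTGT

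*Dcstamp* stood at 0.499, 0.251 and 0.0243 FPKM in the 3 control samples, which rests on 22, 11 and 1 fragments. It was 32.1, 22.4 and 70.9 FPKM in RANKL 72 h, from 1288, 943 and 2942 fragments. Every RANKL 72 h sample was thus far above every control sample, and the lowest and highest of the 3 differed by 3.17 times. The RANKL 4 h samples held 0.307, 0.118 and 0.168 FPKM, the LPS 4 h samples 0.522, 0.159 and 0.0918 FPKM and the LPS 72 h samples 0.137, 0.118 and 0.146 FPKM, all overlapping control. The mean went from 0.258 ± 0.237 to 41.8 ± 25.7 FPKM (SD over 3 samples), a ratio of 162. The log2 fold change was 6.97 (SE 0.57, adjusted p = 2.42e-06), the third highest of all 11743 tested genes. It was 7.31 against LPS 72 h (adjusted p = 7.12e-07) and 7.01 against RANKL 4 h (adjusted p = 3.22e-06).

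At 4 h the difference of *Dcstamp* from control was -0.04 (SE 0.57, adjusted p = 1) with RANKL and 0.08 (SE 0.57, adjusted p = 0.915) with LPS. Over the 3 samples together, control held 34 fragments (95% Poisson interval 23.5 to 47.5), RANKL 4 h 25 (16.2 to 36.9) and LPS 72 h 17 (9.90 to 27.2), where the intervals cover counting error only. At these levels moderate changes were not detectable at this depth. The LPS 72 h value was 0.134 ± 0.0144 FPKM (SD, n = 3), with a log2 difference from control of -0.35 (SE 0.57, adjusted p = 0.665).

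*Ocstamp* encodes the osteoclast stimulatory transmembrane protein, which resembles DC-STAMP in its layout and is needed for fusion too. It lies on chr2:165393760-165400405 (minus strand, GRCm38) and has 1 coding transcript of 3657 bases in 3 exons. Control samples held 0.381, 0.432 and 0.179 FPKM, and RANKL 72 h samples held 35.5, 21.1 and 69.5 FPKM. The groups again did not overlap, and the mean went from 0.330 ± 0.134 to 42.0 ± 24.8 FPKM (SD, n = 3 each), a ratio of 127. The log2 fold change was 6.50 (SE 0.39, adjusted p = 3.93e-07), the seventh highest of the tested genes. It was 6.70 against LPS 72 h (adjusted p = 1.23e-07) and 5.90 against RANKL 4 h (adjusted p = 7.42e-07). In RANKL 4 h the samples held 0.347, 0.821 and 0.505 FPKM from 14, 33 and 20 fragments, against 16, 18 and 7 fragments in control. That difference, 0.60 (SE 0.39, adjusted p = 1), did not pass the test, and the groups overlapped. The LPS 4 h samples held 0.573, 0.405 and 0.458 FPKM and the LPS 72 h samples 0.288, 0.298 and 0.205 FPKM, both without a called difference from control.

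*Dcstamp* and *Ocstamp* reached nearly the same level in each RANKL 72 h sample. The ratio of *Ocstamp* to *Dcstamp* (both in FPKM, hence per length) was 1.01 ± 0.0857 (SD, n = 3) with a range of 0.943 to 1.11, although the levels themselves differed more than 3-fold between these samples. In control the same ratio ran from 0.764 to 7.35, where both genes rest on few fragments. Both genes were highest in the third sample and lowest in the second. The cathepsin K gene *Ctsk*, the protease that dissolves bone collagen, had the same order with 987, 532 and 1661 FPKM, and so had *Acp5*, the gene of tartrate-resistant acid phosphatase, with 600.1, 293 and 945 FPKM. Per *Ctsk*, *Dcstamp* amounted to 3.25%, 4.21% and 4.27% of its FPKM, a span of 1.32 times. *Ocstamp* amounted to 3.59%, 3.97% and 4.18%, a span of 1.16 times. Per *Acp5* the spans were wider, 1.43 times for *Dcstamp* and 1.24 times for *Ocstamp*. Stromal markers had another order in these samples, 2256, 1001 and 486 FPKM. What the spread between these 3 samples comes from was not tested.

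**Figure D2:**
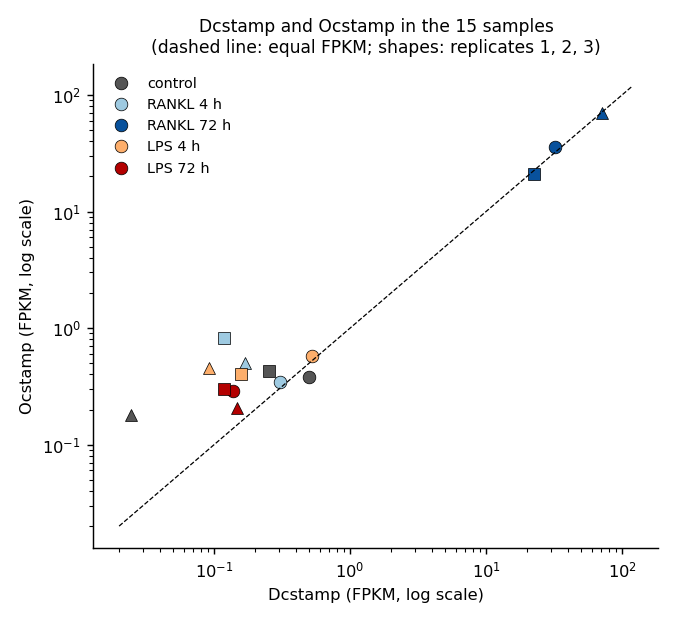
*Ocstamp* against *Dcstamp* in the 15 samples, both in FPKM on log axes, with a dashed line of equal levels. The 3 RANKL 72 h samples lie along that line between 21.1 and 70.9 FPKM, and the other 12 samples lie together below 1 FPKM.

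The tetraspanins are small proteins with 4 membrane spans that gather integrins and other partners into membrane domains. *Cd9* lies on chr6:125460266-125494791 (minus strand, GRCm38) with 1 coding transcript of 8 exons. *Cd81* lies on chr7:143052739-143067934 (plus strand, GRCm38), and its longest of 3 coding transcripts has 8 exons. Non-coding genes overlap each on the opposite strand, *Gm28809* and *Gm26728* at *Cd9* and *R74862* at *Cd81*, and the strand setting of the counting is not given in the sources used here, so their reads cannot be told apart. The 250 bases before the RefSeq start of both genes are printed because *Cd81* rose with RANKL and its family member *Cd9* did not. Capitals mark the GC box GGGCGG on either strand.
Cd9, chr6:125494761-125495010, minus strand, GRCm38.p6: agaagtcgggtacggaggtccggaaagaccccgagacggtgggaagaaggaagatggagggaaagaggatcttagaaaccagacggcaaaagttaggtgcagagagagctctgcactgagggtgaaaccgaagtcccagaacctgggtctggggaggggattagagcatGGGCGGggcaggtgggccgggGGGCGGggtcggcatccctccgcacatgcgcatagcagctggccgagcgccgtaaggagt
Cd81, chr7:143052500-143052749, plus strand, GRCm38.p6: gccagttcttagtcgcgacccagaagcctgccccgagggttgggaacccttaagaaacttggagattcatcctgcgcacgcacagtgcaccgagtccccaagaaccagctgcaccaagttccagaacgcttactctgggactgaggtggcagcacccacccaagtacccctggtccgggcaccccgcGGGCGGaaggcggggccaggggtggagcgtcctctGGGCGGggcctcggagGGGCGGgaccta
Both windows held 16 CG pairs, against a median of 6 over 32851 mouse promoters, and the GC box stood 2 times before *Cd9* and 3 times before *Cd81*. That motif was present in 32.7% of all promoter windows. The other motifs were searched on both strands too. The AP-1 motif TGANTCA (6.75% of all windows) was in neither window. The strings TGGAAA (18.6%), searched for NFAT, and GAGGAA (23.3%), searched for ETS factors, were in neither as well. This says only that these letters are not there. The shorter GGAA, which both strings contain, occurs in each window. RefSeq promoters were matched for 5 of the 8 genes.

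*Cd81* was 24.0, 20.8 and 18.9 FPKM in control, and RANKL 72 h samples held 58.2, 64.6 and 73.6 FPKM. No sample of another group exceeded 24.8 FPKM, so RANKL 72 h stood clear of all of them. The mean rose from 21.2 ± 2.57 to 65.4 ± 7.73 FPKM (SD over 3 samples), a ratio of 3.08 and a log2 fold change of 1.62 (SE 0.21, adjusted p = 0.000133). It was 1.99 above LPS 72 h (adjusted p = 6.46e-06) and 1.84 above RANKL 4 h (adjusted p = 5.15e-05). The order within RANKL 72 h, highest in the third sample and lowest in the first, differed from that of the stromal markers, highest in the first and lowest in the third. Without the first sample the log2 fold change was 1.70, and the part of stromal cells in the *Cd81* values was not tested. *Cd81* spanned 1.26 times over these samples where *Dcstamp* spanned 3.17 times.

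*Cd81* was not called in any other comparison with control. The RANKL 4 h samples held 19.3, 17.7 and 17.6 FPKM and the LPS 4 h samples 17.4, 13.7 and 12.6 FPKM. The latter lay below control by 0.55 on the log2 scale (SE 0.21, adjusted p = 0.0377), under the fold threshold, and with each sample centred on its median tested gene the value became 0.021. It was called lower without the third control sample (-0.63) or the first LPS 4 h sample (-0.68). In LPS 72 h the samples held 13.8, 12.6 and 24.8 FPKM. The highest is the sample that stood apart in macrophage, stromal, granulocyte and LPS response markers. Without it the log2 difference from control went from -0.37 to -0.67 and was called lower (adjusted p = 0.0031).

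*Cd9*, by contrast, held 169, 113 and 169 FPKM in control while RANKL 72 h samples held 158, 163 and 181 FPKM, with overlapping groups. The log2 difference was 0.18 (SE 0.24, adjusted p = 0.59), and -0.015 without the second control sample. The RANKL 4 h samples held 164, 115 and 161 FPKM and the LPS 4 h samples 175, 90.1 and 153 FPKM. In LPS 72 h *Cd9* fell to 96.3, 70.4 and 74.3 FPKM, below all control samples, with means of 80.3 ± 14.0 against 150.1 ± 32.5 FPKM (SD, n = 3 each). The log2 fold change was -0.89 (SE 0.24, adjusted p = 0.0104), and RANKL 72 h was 1.07 above LPS 72 h (adjusted p = 0.00232). With *Cd81* up and *Cd9* level, the ratio of *Cd9* to *Cd81* was 5.42 to 8.94 in control and 2.45 to 2.72 in RANKL 72 h, without overlap.

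The second sample was the lowest for *Cd9* in control, RANKL 4 h and LPS 4 h, and the granulocyte markers were lowest in the same samples. Their sum was 24348, 7913 and 21355 FPKM in the control samples, while it was 21794, 7513 and 14105 FPKM in RANKL 4 h and 21334, 6667 and 12992 FPKM in LPS 4 h. All 10 of these markers were called lower in LPS 72 h and 5 of 10 in RANKL 72 h. In RANKL 72 h, however, *Cd9* was at its highest, 181 FPKM, in the sample with the lowest marker sum, 1852 FPKM. The part of granulocytes in the *Cd9* values was not tested.

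**Figure D3:**
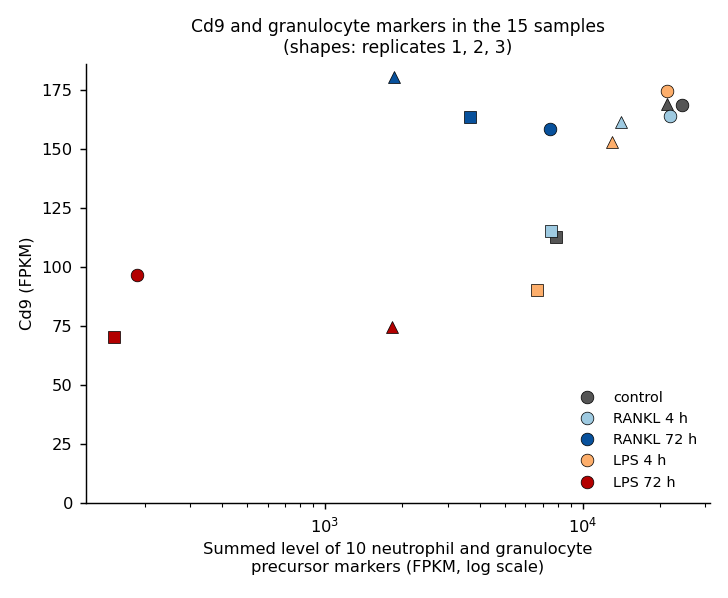
*Cd9* in FPKM (linear axis from 0) against the summed level of 10 neutrophil and granulocyte precursor markers in FPKM (log axis) in the 15 samples. The second samples of control, RANKL 4 h and LPS 4 h are the lowest of their groups in both, at 90.1 to 115 FPKM of *Cd9*, while RANKL 72 h keeps 158 to 181 FPKM at marker sums of 1852 to 7461 FPKM.

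CD47 and SIRPα bind each other on neighbouring cells. CD47 is the broadly expressed signal that restrains phagocytosis, and SIRPα is its inhibitory receptor on myeloid cells, and blocking their contact hampers multinucleation. *Cd47* lies on chr16:49800533-49915010 (plus strand, GRCm38) with 9 coding transcripts, and *Sirpa* on chr2:129592835-129632228 (plus strand, GRCm38) with 9 as well. The close relatives *Sirpb1a* and *Sirpb1b* were at 4.82 and 5.95 FPKM in control, against 371 FPKM for *Sirpa*, and at 10.9 and 13.6 FPKM in LPS 72 h, and reads shared between such near-identical copies are uncertain.

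*Cd47* was highest in LPS 4 h. It held 100.3, 85.1 and 70.6 FPKM in control, 123, 109 and 115 FPKM in LPS 4 h and 54.5, 61.8 and 52.5 FPKM in RANKL 72 h. LPS 4 h lay above all other samples and RANKL 72 h below all control samples, yet neither passed the fold threshold. The log2 differences from control were 0.45 (SE 0.15, adjusted p = 0.0187) in LPS 4 h and -0.59 (SE 0.15, adjusted p = 0.0096) in RANKL 72 h. The latter is just outside the threshold, which stands at -0.60. When each sample was centred on its median tested gene both were called, at 1.02 and -0.81. The value in RANKL 72 h was also called without the third control sample (-0.72) or the second RANKL 72 h sample (-0.66). From 4 h to 72 h of LPS *Cd47* changed by -0.71 (adjusted p = 0.000798), to 70.5, 71.1 and 69.3 FPKM.

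*Sirpa* was among the most abundant of the 8 genes and was lowest in LPS 4 h. It held 323, 412 and 379.8 FPKM in control and 206, 233 and 207 FPKM in LPS 4 h, without overlap. The log2 fold change was -0.78 (SE 0.12, adjusted p = 0.00011), beside a median of -0.52 over all tested genes, and centred on the median gene it was -0.21 and not called. In LPS 72 h the level was 323, 310.3 and 339 FPKM and in RANKL 72 h 467, 482 and 436 FPKM. RANKL 72 h lay above every control sample by a log2 difference of 0.32 (SE 0.12, adjusted p = 0.0617), which is short of the fold threshold. RANKL 4 h, at 369.7, 462 and 419.6 FPKM, exceeded LPS 4 h by 0.95 (adjusted p = 2.07e-05), beside 0.53 for the median tested gene, and by 0.38 without a call after centring.

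The level of *Sirpa* per *Cd47* differed between groups. The ratio was 3.22 to 5.38 in control, 3.87 to 6.64 in RANKL 4 h, 7.79 to 8.58 in RANKL 72 h, 1.68 to 2.14 in LPS 4 h and 4.36 to 4.89 in LPS 72 h. A ratio within a sample does not depend on how that sample was scaled. RANKL 72 h lay above and LPS 4 h below all samples of the other groups.

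CD44 is the receptor for hyaluronan and osteopontin, and it takes part in adhesion and in fusion of macrophages. *Cd44* lies on chr2:102811141-102901665 (minus strand, GRCm38), where the longest of 8 coding transcripts has 19 exons. Its window before the RefSeq start is shown because *Cd44* had the strongest response of the 8 genes to LPS at 4 h. Capitals mark GAGGAA, the string searched for ETS factors, or its complement TTCCTC.
Cd44, chr2:102901666-102901915, minus strand, GRCm38.p6: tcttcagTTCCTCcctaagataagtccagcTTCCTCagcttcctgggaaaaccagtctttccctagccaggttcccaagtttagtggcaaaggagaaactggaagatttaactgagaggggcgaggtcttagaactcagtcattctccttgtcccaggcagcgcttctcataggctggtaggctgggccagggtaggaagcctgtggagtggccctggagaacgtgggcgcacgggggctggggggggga
The window held 2 such strings and 5 CG pairs, without a GC box, an AP-1 motif or the string TGGAAA. The shorter GGAA occurs in it unmarked.

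*Cd44* rose with LPS at 4 h from 70.0, 63.0 and 81.3 FPKM to 159.7, 188 and 184 FPKM. Each LPS 4 h sample was above every sample of the other groups. The means were 71.4 ± 9.25 and 177 ± 15.3 FPKM (SD, n = 3 each), a ratio of 2.48, with a log2 fold change of 1.31 (SE 0.13, adjusted p = 1.89e-06). By 72 h of LPS it had fallen back to 106, 95.3 and 94.7 FPKM, 0.84 below LPS 4 h on the log2 scale (adjusted p = 5.91e-05). RANKL 72 h reached the same level, 90.6, 99.0 and 107 FPKM. Both 72 h groups lay above all control samples with log2 differences of 0.47 (SE 0.13), adjusted p = 0.0132 for RANKL and 0.0113 for LPS, each below the fold threshold. Between RANKL 72 h and LPS 72 h the difference was 0.00 (SE 0.13, adjusted p = 1). RANKL 4 h held 67.1, 73.9 and 87.8 FPKM and lay 1.22 below LPS 4 h (adjusted p = 3.51e-06).

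*Adam8* encodes a membrane-anchored disintegrin and metalloprotease of leukocytes that also promotes osteoclast fusion. It lies on chr7:139978932-139992562 (minus strand, GRCm38), with 24 exons in the longest coding transcript, and *Gm16201* and *Mir7062* overlap it. It was the most abundant of the 8 genes in control, at 420.3, 513 and 447 FPKM. It lay below control in LPS 4 h, at 215, 277 and 265 FPKM, and above control in LPS 72 h, at 820.1, 789 and 1004 FPKM. Neither group overlapped control. The log2 fold changes were -0.87 (SE 0.17, adjusted p = 0.000639) and 0.92 (SE 0.17, adjusted p = 0.00107), and LPS 72 h was 1.79 above LPS 4 h (adjusted p = 1.12e-06). Centred on the median gene, the value at 4 h was -0.30 and not called, and that at 72 h was 0.84 and called. Without the third LPS 72 h sample the rise at 72 h was 0.81 (adjusted p = 0.0030).

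In RANKL 72 h *Adam8* was 264, 346 and 303 FPKM, below all control samples. The log2 fold change of -0.60 (SE 0.17, adjusted p = 0.017) passed the fold threshold by less than 0.01, and the call was lost without the second control sample (-0.52) or without the first RANKL 72 h sample (-0.50). It was lost as well with a pseudocount of 1, with FPKM rescaled to equal sums (-0.48) and with limma voom (-0.59). Against LPS 72 h the difference was far larger, -1.52 (SE 0.17, adjusted p = 1.08e-05), with no overlap. RANKL 4 h, at 383, 501 and 570.5 FPKM, did not differ from control beyond the spread (0.06, SE 0.17, adjusted p = 1).

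Counted together, 3 of the 8 genes were called higher and 1 lower in RANKL 72 h against control, *Dcstamp*, *Ocstamp* and *Cd81* against *Adam8*, whose call 5 of 26 alternatives ended. Of all tested genes 20.2% were called higher and 9.04% lower. In RANKL 4 h 0 of the 8 were called, and none had an unadjusted p under 0.05 from limma or was called under any alternative, where 1.21% of tested genes were higher and 1.35% lower. No fit paired RANKL 4 h with control alone, although their same-numbered samples deviated alike (r of 0.71 to 0.84). In every such pair *Sirpa* was higher and *Cd47* and *Cd81* lower, while the other genes went both ways. The log2 differences of these 3 were 0.17, -0.12 and -0.22, short of the fold threshold, and a paired difference was not tested. In LPS 72 h *Adam8* was higher and *Cd9* lower, 1 of 8 each, against 14.9% and 16.1% of tested genes. In LPS 4 h *Cd44* was higher, 1 of 8 against 8.75%, and *Sirpa* and *Adam8* were lower, 2 of 8 against 41.0%. These shares are close to the background in LPS 72 h and do not exceed it for the falls in LPS 4 h. The median log2 fold change of the 8 genes was 0.40 in RANKL 72 h, 0.02 in RANKL 4 h, -0.23 in LPS 72 h and -0.03 in LPS 4 h, beside 0.16, 0.00, 0.08 and -0.52 for all tested genes.

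**Figure D4:**
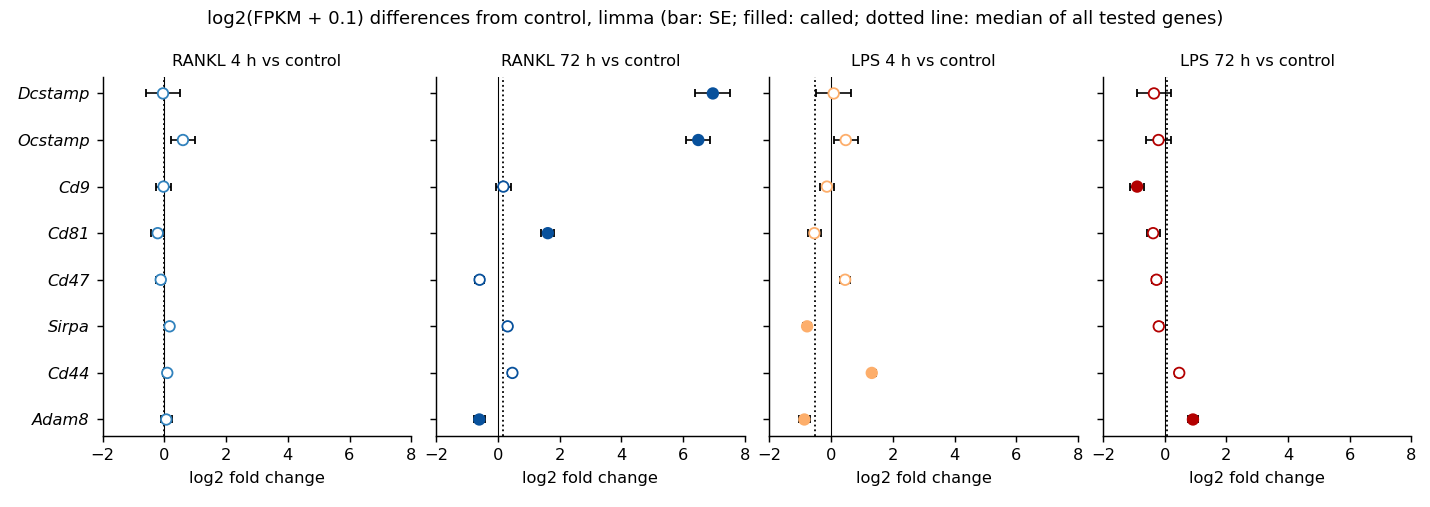
Log2 fold change of the 8 genes against control in the 4 stimulated groups, from limma on log2(FPKM + 0.1), with SE bars, filled points for genes called and a dotted line at the median of all tested genes. *Dcstamp* and *Ocstamp* stand at 6.97 and 6.50 in RANKL 72 h, RANKL 4 h has no filled point, and the dotted line of LPS 4 h lies at -0.52.

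The stimuli and times were compared directly as well. Between RANKL 72 h and LPS 72 h *Dcstamp*, *Ocstamp*, *Cd81* and *Cd9* were higher and *Adam8* lower, 4 and 1 of 8 against 25.1% and 13.8% of tested genes. Between RANKL 4 h and LPS 4 h *Sirpa* and *Adam8* were higher and *Cd44* lower, 2 and 1 of 8 against 42.5% and 9.31%, and centring ended the calls of *Sirpa* (0.38) and *Adam8* (0.36). Between RANKL 72 h and RANKL 4 h the calls were 3 higher and 1 lower, against 20.1% and 8.24%, and fell on the same 4 genes as against control. Between LPS 72 h and LPS 4 h *Sirpa* and *Adam8* were higher and *Cd9*, *Cd47* and *Cd44* lower, 2 and 3 of 8 against 45.0% and 14.3%. The rise of *Sirpa* there, 0.59, was just inside the threshold and became -0.057 when centred on the median gene. It was also lost, at 0.56 to 0.57, without the first or the third LPS 4 h sample or the third LPS 72 h sample. The fall of *Cd9* was lost without the first LPS 4 h sample (-0.56, adjusted p = 0.0645). The fall of *Adam8* between the RANKL times (-0.66) was lost without the third RANKL 4 h sample (-0.53) or the first RANKL 72 h sample (-0.56), and with equal sums of FPKM (-0.54).

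*Ocstamp* and *Dcstamp* had the lowest means of the 8 genes both in control and in RANKL 72 h. In control it ran from *Adam8* at 460.0 FPKM through *Sirpa* (371), *Cd9* (150.1), *Cd47* (85.3), *Cd44* (71.4) and *Cd81* (21.2) to *Ocstamp* (0.330) and *Dcstamp* (0.258). The ranges of *Cd47* and *Cd44* overlapped, as did those of *Ocstamp* and *Dcstamp*. In RANKL 72 h *Sirpa* led with 462 FPKM, followed by *Adam8* (304), *Cd9* (167), *Cd44* (98.8), *Cd81* (65.4) and *Cd47* (56.3). *Ocstamp* and *Dcstamp* followed at 42.0 and 41.8 FPKM, and from *Cd81* downward each gene overlapped the next.

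The genes whose log2 levels followed each member most closely over the 15 samples were looked up among 9485 genes that averaged 1 FPKM or more, as Pearson's r. The samples share groups, so r mostly describes the group pattern. For *Dcstamp* they were *Mt3* (0.99), *Serpind1* (0.98) and *Ocstamp* (0.98), and for *Ocstamp* they were *Serpind1* (0.98), *Slc9b2* (0.98) and *Dcstamp* (0.98). *Cd81* was closest to *Rufy4* (0.97), *Plekhf1* (0.97) and *Aldoa* (0.97). *Cd9* had *Itgax* (0.90), *Ly6g* (0.89), which marks neutrophils, and *Tmem158* (0.88). *Cd47* had *Isg20*, *Nmi* and *Mnda* (0.98 to 0.99), *Sirpa* had *Ints7*, *Cln6* and *Ap4m1* (0.97 to 0.98), *Cd44* had *Rab11fip1*, *Malt1* and *Sec24b* (0.96) and *Adam8* had *Os9*, *Agpat3* and *Atp6v0a2* (0.95 to 0.96).

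The members were then set beside 79 other genes in 5 lists, namely their partners, the other tetraspanins, the other ADAM proteases, other genes of fusion and regulators of fusion. Of these, 74 passed the filter. In RANKL 72 h 22 of the 74 were called higher and 10 lower, 29.7% and 13.5% against 20.2% and 9.04% of all tested genes, with a median log2 fold change of 0.20. In RANKL 4 h 0 were called by limma, and 2 with the replicate number as a block. In LPS 72 h 10 were higher and 16 lower, 13.5% and 21.6% against 14.9% and 16.1%. In LPS 4 h 13 were higher and 22 lower, 17.6% and 29.7% against 8.75% and 41.0%, so the share of falls was below that of all tested genes.

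The counts of each list in RANKL 72 h stand beside the same 20.2% higher and 9.04% lower over all tested genes. Among 14 partners, 3 were higher (21.4%) and 1 lower (7.14%). *Ptgfrn*, which binds CD9 and CD81, went from 1.04 ± 0.202 to 2.99 ± 1.55 FPKM (SD over 3 samples, log2 1.34, adjusted p = 0.00695). It was called higher in LPS 72 h as well, at 2.34 ± 0.492 FPKM. *Igsf8*, a related partner of both tetraspanins, fell from 80.0 ± 25.1 to 41.8 ± 2.81 FPKM (log2 -0.89, adjusted p = 0.00462) and rose in LPS 4 h to 162 ± 24.2 FPKM (log2 1.05, adjusted p = 0.000519). The integrin subunit *Itga9* was higher in RANKL 72 h by 1.18 (adjusted p = 0.0195) and in LPS 72 h by 1.37 (adjusted p = 0.00738). Of 21 other tetraspanins tested, 4 were higher (19.0%) and 3 lower (14.3%) in RANKL 72 h. *Tspan7*, a tetraspanin of the osteoclast cytoskeleton, went from 0.308 ± 0.0227 to 4.10 ± 1.89 FPKM (log2 3.24, adjusted p = 0.000155). *Tspan6* was called at 1.23, but with overlapping groups and an adjusted p of 0.0872. *Cd53*, the leukocyte tetraspanin, fell from 254 ± 13.8 to 118 ± 18.5 FPKM (log2 -1.11, adjusted p = 2.72e-05) and was not called in the other groups.

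Of 6 other ADAM proteases 3 were higher (50%) and 0 lower in RANKL 72 h, while *Adam8* was lower by a call lost under several alternatives. The 3 were *Adam17*, *Adam9* and *Adam12*. *Adam12*, named here although it averaged below 1 FPKM, was at 0.259 ± 0.0226 and 0.735 ± 0.631 FPKM with overlapping groups. *Adam17*, the enzyme that sheds TNF, went from 30.3 ± 2.37 to 58.6 ± 3.91 FPKM (log2 0.95, adjusted p = 0.000166). It was called higher in LPS 4 h too, at 47.3 ± 6.29 FPKM. *Adam9* was at a log2 fold change of 0.59 in RANKL 72 h (adjusted p = 0.0866), just inside the fold threshold and lost on centring. Of 20 other fusion genes tested, 8 were higher (40%) and 5 lower (25.0%). *Mmp9*, a gelatinase of osteoclasts, went from 55.3 ± 47.5 to 1453 ± 857 FPKM (log2 4.98, adjusted p = 0.000136) and *Cd200*, a surface glycoprotein, from 3.31 ± 1.79 to 19.0 ± 8.26 FPKM (log2 2.53, adjusted p = 0.00241), and it was called higher in LPS 4 h (2.25) and LPS 72 h (1.64) as well. *Ccl2*, the monocyte chemokine, fell from 808 ± 170.0 to 67.3 ± 33.1 FPKM (log2 -3.72, adjusted p = 6.88e-06). *Atp6v0d2*, the proton pump subunit named in fusion, had means of 77.6 ± 20.3 and 131 ± 48.5 FPKM without a call (log2 0.72, adjusted p = 0.247), and is named here after its value was seen.

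Of 13 regulators tested, 4 were higher (30.8%) and 1 lower (7.69%) in RANKL 72 h. *Nfatc1* went from 7.74 ± 1.54 to 44.2 ± 18.5 FPKM (log2 2.42, adjusted p = 2.85e-05), with 45.3, 25.2 and 62.2 FPKM in the 3 samples, the same order as *Dcstamp* and *Ocstamp*. *Fos*, a partner of NFATc1 at osteoclast genes, was higher by 1.45 (adjusted p = 0.00175), and in LPS 72 h by 1.25 (adjusted p = 0.00333), and was lower in LPS 4 h (-1.48, adjusted p = 0.000452). *Tnfrsf11a*, the receptor of RANKL, was higher in RANKL 72 h by 0.79 (adjusted p = 0.00427), a call lost on centring, and lower in LPS 72 h by a log2 change of -0.92 (adjusted p = 0.00127).

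**Figure D5:**
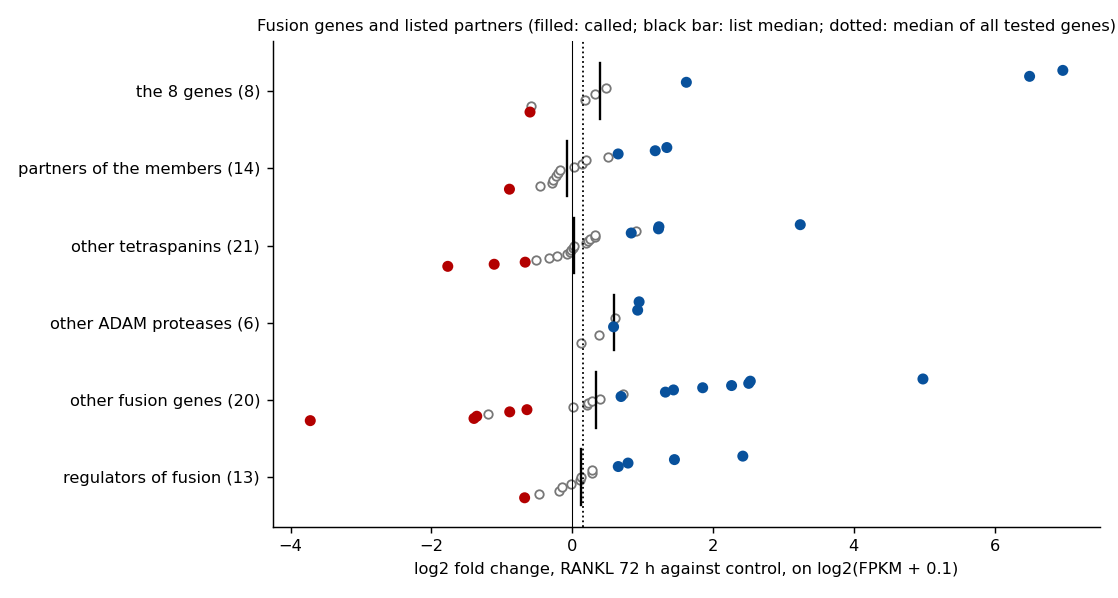
Log2 fold change of RANKL 72 h against control for the 8 genes and for the tested genes of the 5 lists, with called genes filled (blue higher, red lower), a black bar at each median and a dotted line at 0.16, the median of all tested genes. *Dcstamp* and *Ocstamp* lie farthest to the right, followed by *Mmp9* at 4.98 and *Tspan7* at 3.24, and *Ccl2* lies farthest to the left at -3.72.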

How the data were processed

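RNA was sequenced from 15 BMDM samples, 3 in each of 5 groups taken from the labels. The authors deposited FPKM per gene, which per the methods were made with StringTie and Ballgown. The labels name the builds GRCm38.p4 and mm10, and the aligner and strand setting are not given in the sources used here. The table ends at an incomplete line, so the genes after it in the alphabet, *Tyrobp* among those listed, were not analysed here. Genes averaging 0.1 FPKM or more (11743 of 20089) were fitted as log2(FPKM + 0.1) with limma 3.58.1 in R 4.3.3 (eBayes with trend, all 15 samples in 1 fit, adjusted p by Benjamini-Hochberg), with the study's thresholds of fold and p. An exact permutation test of 3 against 3 samples cannot go below p = 0.1 and was not used for calls.

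Fragments per gene were the smallest whole numbers that matched its FPKM in every sample, given what 1 fragment is worth there (tolerance 0.01 fragments). Such numbers were found for 14485 genes, all those above 0 in at least 3 samples. That 100% of their values match follows from this rule and is no separate check. These numbers gave 18306184 to 20330207 fragments per sample. Limma voom on those fragments called 3524 genes in RANKL 72 h against control, and the FPKM fit 3431. The scripts were tested on simulated data. Alternatives were other pseudocounts, filters, scalings, fits and leaving out each sample. Replicate numbers were checked by the correlation of same-numbered deviations from group means over 9486 genes. All 3 exceeded 0.1, the threshold set, in 5 of 8 comparisons (lowest value 0.136). Among control and the 4 h groups they were 0.44 to 0.84, and 3 of 3 samples matched best with their own number. For RANKL 72 h against control and against RANKL 4 h they were only 0.14 to 0.32, and 2 of 3 samples did so. The labels do not say what a number shares.

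The 8 genes and the 5 lists were chosen with earlier results of these data known. Of each list the up to 3 genes with the largest change among those called in RANKL 72 h and with a mean of at least 1 FPKM are named, and for each of the 8 genes the 3 with the highest correlation. Marker lists of macrophages, osteoclasts, the LPS response, stromal cells, granulocytes, B cells and T cells were used as checks. B cell markers were called lower for 5 of 6 genes in each 72 h group, and T cell markers higher for 1 of 6 in RANKL 72 h. Promoter windows are RefSeq sequences of GRCm38.p6.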

Additional observations from a re-analysis of the deposited data

Results flagged for a closer look

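Some genes differed between the early and the late time point of the same stimulus, tested directly with limma as the contrast of 72 h against 4 h. With RANKL the log2 differences were 7.01 for *Dcstamp*, 5.90 for *Ocstamp*, 1.84 for *Cd81* and -0.66 for *Adam8*, and in each case all 3 late samples lay on the same side of all early samples. With LPS they were 1.79 for *Adam8*, 0.59 for *Sirpa*, -0.71 for *Cd47*, -0.75 for *Cd9* and -0.84 for *Cd44*. Of these, *Cd9* is the only one whose groups overlapped, since its LPS 4 h sample with the lowest granulocyte markers held 90.1 FPKM against 96.3 FPKM in the highest LPS 72 h sample. The median of all tested genes itself moved by 0.52 between the LPS time points and by 0.15 between the RANKL time points. Centred on the median gene, *Adam8* was at 1.14 and *Sirpa* at -0.057 with LPS.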

How the results depend on the processing

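The calls of *Dcstamp*, *Ocstamp* and *Cd81* in RANKL 72 h against control, LPS 72 h and RANKL 4 h held under all 26 alternatives, with log2 fold changes against control of 4.94 to 7.80, 4.86 to 6.91 and 1.40 to 1.74. Those of *Cd44* in LPS 4 h (1.23 to 1.88) and of *Adam8* (0.81 to 0.999) and *Cd9* (-1.09 to -0.79) in LPS 72 h against control held as well. Of 1664 repeated values of the 8 genes, 1591 kept their direction and side of the threshold. The median gene of LPS 4 h lay 0.52 below control, and all genes called there were 1028 higher and 4818 lower as deposited and 2049 and 1675 when samples were centred on their median gene. In RANKL 72 h they were 2369 and 1062 as deposited, and 1488 and 1668 after centring. Centring also turned *Ocstamp* in RANKL 4 h against LPS 4 h to -0.44, *Cd9* to -0.040 in RANKL 72 h and 0.43 in LPS 4 h against control, to -0.45 in RANKL 4 h against LPS 4 h and to -0.012 between RANKL times, *Cd81* to 0.021 in LPS 4 h against control, -0.24 in RANKL 4 h against LPS 4 h and -0.48 between LPS times, *Sirpa* to -0.069 between RANKL times and -0.057 between LPS times, and *Cd44* to -0.14 in RANKL 72 h against LPS 72 h. It ended the calls of *Sirpa* and *Adam8* in LPS 4 h against control and RANKL 4 h, and made calls of *Ocstamp* in LPS 4 h against control (1.04) and between LPS times (-1.32) and of *Cd47* in 4 comparisons. *Dcstamp* in RANKL 4 h against control was 0.22 with a pseudocount of 0.01 and 0.18 with voom. The call of *Adam8* in RANKL 72 h was lost with a pseudocount of 1, equal sums of FPKM and voom (-0.60 to -0.48), that between RANKL times with equal sums (-0.54), and the cause of these shifts was not tested.

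Leaving out 1 sample changed the sign of small values that were not called. The ranges were for *Dcstamp* -0.67 to 0.46 in RANKL 4 h, -0.97 to 0.16 in LPS 72 h and -0.55 to 0.59 in LPS 4 h against control, -0.48 to 0.37 in RANKL 4 h against LPS 4 h and -0.78 to 0.068 between LPS times, for *Ocstamp* -0.14 to 0.38 in RANKL 4 h against LPS 4 h, for *Cd9* -0.015 to 0.28 in RANKL 72 h, -0.22 to 0.14 in RANKL 4 h and -0.33 to 0.15 in LPS 4 h against control and -0.17 to 0.30 in RANKL 4 h against LPS 4 h, for *Cd81* -0.13 to 0.35 between LPS times, for *Cd47* -0.27 to 0.034, *Cd44* -0.013 to 0.19 and *Adam8* -0.066 to 0.22 in RANKL 4 h against control, and for *Cd44* -0.058 to 0.061 in RANKL 72 h against LPS 72 h. The members called between LPS times numbered 3 to 5, with 3 without the first LPS 4 h sample, where *Cd9* (-0.56) and *Sirpa* (0.56) lost their calls. Listed genes called in RANKL 4 h against control numbered 0 to 4, and 2 with the replicate block, which changed no call of the 8 genes in any comparison. That block was fitted over all samples, including LPS 72 h, whose numbers did not pair with control. It therefore does not test the closer pairing of RANKL 4 h with control by itself.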
